A study of Homo sapiens with 8 samples.

Results

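The genes described here encode subunits of the oxidative phosphorylation complexes I to V, and they were followed by RNA sequencing in KYSE70 and KYSE450, human cell lines from esophageal squamous cell carcinoma. Members were taken by gene symbol (MT-ND, MT-CO, MT-ATP, MT-CYB, NDUF, SDH, UQCR, COX and ATP5 families), which gave 98 of the 48162 genes listed. Of these, 13 are mitochondrially encoded and 85 are nuclear-encoded, and they carry 94 symbols because SDHD, NDUFB8, UQCR11 and NDUFA7 are each listed under a second identifier. All 13 mitochondrially encoded genes and 76 nuclear-encoded ones had a mean of at least 1 FPKM (reads corrected for gene length and library size) over the libraries and were tested, 89 members among 14311 genes tested. The tested nuclear members fall to complex I (38), complex II (4), complex III (8), complex IV (10) and complex V (16). The other 9 members had means below 1 FPKM; COX7B2, the second SDHD and the second NDUFB8 were listed at 0 in every library.

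The study manipulated the long noncoding RNA NMR. Overexpression was by a pcDNA3.1 plasmid transfected with Lipofectamine, and knockdown was by short hairpin RNA from lentivirus packaged in HEK 293T cells, a human embryonic kidney line. Each manipulation had its own vector control, so the series holds NMR overexpression, its control, NMR knockdown and its control, each as 1 library of KYSE70 and 1 of KYSE450. The libraries are of total RNA from unselected cultures of established lines, so the replicates of a treatment are 2 different cell lines. Nothing in the labels says that any libraries came from separate cultures. For the treatments, the spread behind the p-values is how far each treatment's change differed between the 2 lines. Between the lines it takes in differences among the groups, and between the arms the treatment changes. It is not a spread between replicate cultures, and it may be technical.

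Reads recovered from the deposited values came to between 26401805 and 37937856 per library. No gene named NMR was found among those listed, so the manipulation itself was not checked. The squamous marker list (KRT5, TP63, SFN and 8 others) had all 11 genes at a mean of at least 1 FPKM and summed to between 7998 and 26532 FPKM per library. KRT5 and KRT6A were the highest in every library. KRT17 was at 0.34 to 0.87 FPKM in KYSE70 and 190 to 264 FPKM in KYSE450. ITGB4 was at 117 to 145.5 FPKM in KYSE70 and 0.33 to 1.58 FPKM in KYSE450. KRT14 was at 3.20 to 38.3 FPKM in KYSE70 and 371 to 1211 FPKM in KYSE450. The other markers were at 35.7 FPKM or more in every library. Leukocyte markers summed to between 0.0629 and 0.594 FPKM, endothelial markers to between 0.733 and 4.29 FPKM, and fibroblast markers to between 27.1 and 52.3 FPKM with 2 of 6 genes tested. The KYSE70 knockdown library stood apart: its cytosolic ribosomal protein genes summed to 41508 FPKM, against 61005 to 102320 FPKM in the other libraries. Its nuclear-retained RNA MALAT1 was at 579.5 FPKM, against 164 to 274.5 FPKM in the other libraries. NEAT1, another such RNA, was at 116 FPKM there, within the 78.05 to 228 FPKM of the other libraries.

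Oxidative phosphorylation couples the oxidation of NADH and succinate to ATP synthesis. Complex I (NADH dehydrogenase), complex III (cytochrome bc1) and complex IV (cytochrome c oxidase) pump protons across the inner mitochondrial membrane, complex II (succinate dehydrogenase) feeds electrons in without pumping, and complex V (ATP synthase) uses the proton gradient. All complexes except complex II combine subunits made inside the mitochondrion from its own circular chromosome with subunits made in the cytosol from nuclear genes, so the messenger RNAs of a single complex come from separate genomes with separate transcription machineries. The mitochondrial genes are read as long precursors, MT-ND6 from the opposite strand to the other 12 subunit genes, and are cut into individual messenger RNAs.

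Mitochondrially encoded messenger RNAs fell into a high and a low set by level. MT-CO1, MT-CO2, MT-CO3, MT-ATP6, MT-ND1, MT-ND2, MT-ND3, MT-ND4 and MT-ND4L lay between 1083 and 13070.1 FPKM in every library. MT-ATP8, MT-ND5, MT-ND6 and MT-CYB lay between 44.5 and 424 FPKM, so the sets did not overlap in any library. FPKM is per length, which allows most of these levels to be set side by side. MT-ATP8 shares bases with MT-ATP6, and the sources used here do not say how reads over them were counted. The place of MT-ATP8 in the low set is therefore uncertain. In bulk RNA, fewer cells with a transcript and less of it per cell cannot be told apart.

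Of the core catalytic subunits of complex IV, MT-CO1 had, in KYSE70 and KYSE450, 7622 and 6200.4 FPKM with overexpression against 7291 and 5678 in its controls, and 13070.1 and 5561 FPKM with knockdown against 8527 and 6110.5 in its controls. MT-CO2 had, in the same lines, 5887 and 5180.4 FPKM with overexpression against 6228 and 5358 in its controls, and 12474 and 4763 FPKM with knockdown against 7785 and 6456 in its controls. MT-CO3 had, in KYSE70 and KYSE450, 6822 and 5964 FPKM with overexpression against 7305 and 4470.5 in its controls, and 8300.0 and 5459 FPKM with knockdown against 7677 and 5874 in its controls. The KYSE70 knockdown library was the highest of the 8 for all 3 genes, and the KYSE450 knockdown library was below its control for all 3.

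For complex V, MT-ATP6, the proton channel subunit, had, in KYSE70 and KYSE450, 5083 and 3568 FPKM with overexpression against 5059.8 and 2953 in its controls, and 7508.5 and 2795 FPKM with knockdown against 5979.5 and 3320.2 in its controls. MT-ATP8, its small partner, had, in these lines, 188 and 201 FPKM with overexpression against 216 and 149.9 in its controls, and 424 and 172 FPKM with knockdown against 195 and 196 in its controls. Both were highest in the KYSE70 knockdown library. The pair shares bases on the mitochondrial chromosome, as does the pair MT-ND4L and MT-ND4. Reads over the shared bases belong to either gene, so the small gene of each pair is uncertain to at least that extent. The junctions are printed from GENCODE 29 transcripts on GRCh38, plus strand, with the bases annotated to both genes in capitals: 46 bases, 22.2% of MT-ATP8 and 6.8% of MT-ATP6, at chrM:8507-8592, and 7 bases, 2.4% of MT-ND4L and 0.5% of MT-ND4, at chrM:10740-10786.
MT-ATP8 and MT-ATP6: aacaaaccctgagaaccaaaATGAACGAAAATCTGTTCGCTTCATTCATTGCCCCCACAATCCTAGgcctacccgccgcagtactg
MT-ND4L and MT-ND4: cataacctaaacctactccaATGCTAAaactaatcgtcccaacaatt

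Among the membrane-arm subunits of complex I, MT-ND1 had, in KYSE70 and KYSE450, 2947 and 3135 FPKM with overexpression against 2966 and 2846 in its controls, and 2676 and 2941.5 FPKM with knockdown against 2351.5 and 3011 in its controls. MT-ND2 had, in these lines, 2200.5 and 1607 FPKM with overexpression against 2442 and 1444 in its controls, and 3478 and 1655 FPKM with knockdown against 2379 and 2118 in its controls. MT-ND3 had, in KYSE70 and KYSE450, 3400.5 and 3341 FPKM with overexpression against 3779 and 2845 in its controls, and 1561.5 and 4111 FPKM with knockdown against 3049 and 3998 in its controls. MT-ND1 spanned a narrow range, whereas MT-ND3 was lowest of all in the KYSE70 knockdown library.

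MT-ND4L, which shares a transcript with MT-ND4, had, in KYSE70 and KYSE450, 1467 and 1083 FPKM with overexpression against 1673 and 1175 in its controls, and 5649 and 1422.5 FPKM with knockdown against 1882.5 and 1411 in its controls. MT-ND4 had, in these lines, 2139 and 1845.5 FPKM with overexpression against 2001 and 1886 in its controls, and 5681 and 1766 FPKM with knockdown against 2593 and 2262.5 in its controls. In the KYSE70 knockdown library both stood above the other 7 libraries, which overlapped one another.

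Of the low set, MT-ND5, MT-ND6 and MT-CYB lie side by side, at chrM:12337-14148, chrM:14149-14673 and chrM:14747-15887 in GENCODE 29. MT-ATP8, also in the low set, lies elsewhere, beside MT-ATP6. The 3 genes were grouped with their values known, so the grouping is a description. MT-ND5, the last subunit of the proton-pumping arm of complex I, had, in KYSE70 and KYSE450, 135 and 116 FPKM with overexpression against 80.5 and 131 in its controls, and 44.5 and 96.2 FPKM with knockdown against 91.4 and 165 in its controls. MT-ND6 had, in these lines, 196.5 and 258 FPKM with overexpression against 119 and 269.7 in its controls, and 64.2 and 197.5 FPKM with knockdown against 143.5 and 346 in its controls. MT-CYB, the only mitochondrially encoded subunit of complex III, had, in KYSE70 and KYSE450, 197 and 107 FPKM with overexpression against 98.1 and 110 in its controls, and 58.2 and 55.3 FPKM with knockdown against 131 and 136 in its controls. For each of the 3, the knockdown library was the lowest of its line. MT-ND6 lies opposite the precursor that joins MT-ND5 to MT-CYB, and the sources used here do not give the strand setting of the authors' counting, so reads from the opposite strand cannot be told apart from MT-ND6.

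**Figure D1:**
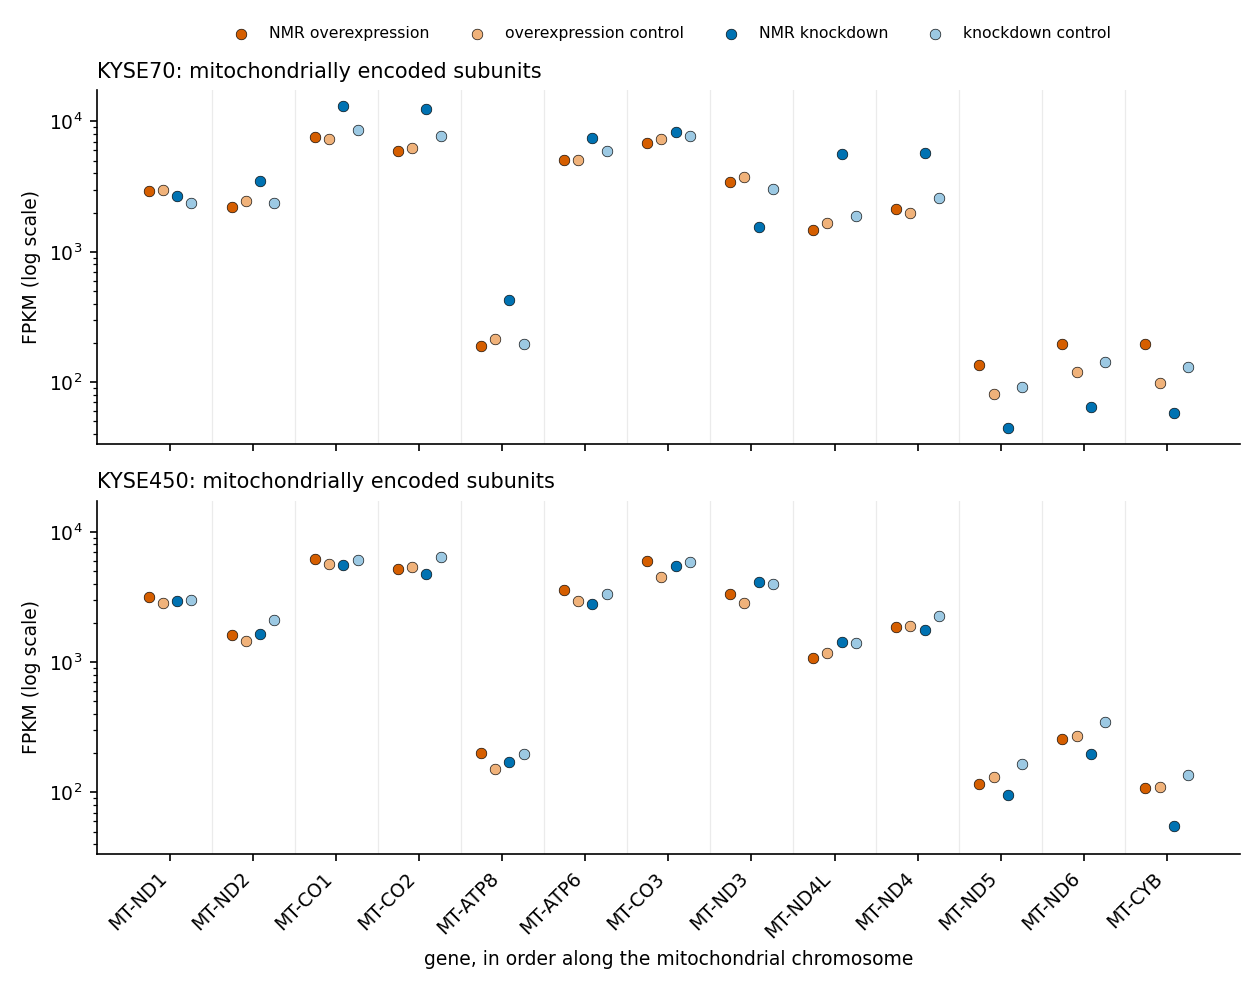
FPKM (log scale) of the 13 mitochondrially encoded subunits in gene order along the mitochondrial chromosome, KYSE70 above and KYSE450 below, with 1 point per library. MT-ATP8, MT-ND5, MT-ND6 and MT-CYB lie between 44.5 and 424 FPKM and the other 9 genes between 1083 and 13070.1 FPKM; MT-ND5, MT-ND6 and MT-CYB are lowest in the knockdown library of each line.

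By sum, the mitochondrially encoded subunits held far more of the FPKM than the nuclear-encoded ones in every library. With overexpression the 13 genes took 5.13% of the FPKM sum in KYSE70 and 4.26% in KYSE450, against 5.17% and 3.84% in the controls of these lines. With knockdown they took 8.63% in KYSE70 and 4.04% in KYSE450, against 5.75% and 4.63% in the controls. The nuclear-encoded genes took 1.65% and 1.84% with overexpression in KYSE70 and KYSE450, against 1.75% and 1.94% in the controls, and 1.11% and 1.74% with knockdown, against 1.54% and 1.77% in the controls. The ratio of mitochondrial to nuclear sums was 7.78 in the KYSE70 knockdown library and between 1.98 and 3.74 in the other 7, and it was higher in KYSE70 than in KYSE450 within each of the 4 groups.

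**Figure D2:**
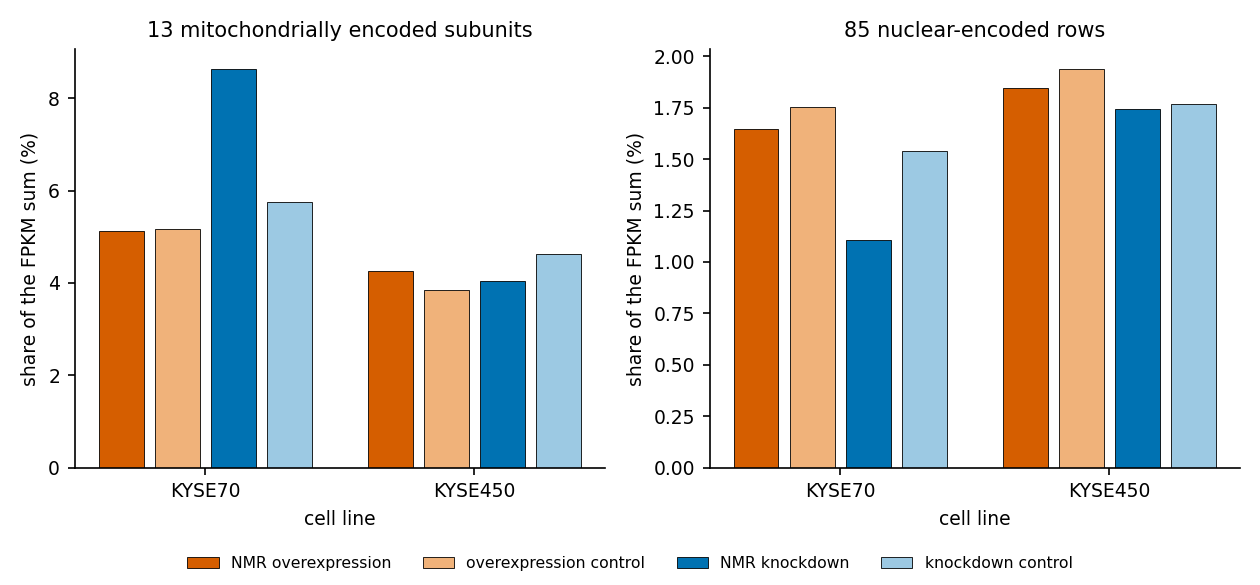
Share of each library's FPKM sum (%) taken by the 13 mitochondrially encoded subunits (left) and the 85 nuclear-encoded genes (right), with 1 bar per library. The KYSE70 knockdown library has the highest mitochondrial share, 8.63%, and the lowest nuclear share, 1.11%.

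NMR knockdown was compared with its control in both lines. MT-CYB, MT-ND6 and MT-ND5 were lower in both lines, and 66 of the 76 nuclear-encoded subunits were below their control in KYSE70, against 40 of 76 in KYSE450. Of all 14311 genes tested, 7196 were below their control in KYSE70 and 6882 in KYSE450. None of the differences of members passed the test when adjusted over all genes. With limma, 0 of 89 members and 0% of all genes had an adjusted p under 0.05; 15 members and 1794 genes had an unadjusted p under 0.05, and voom (limma on the recovered reads) called 4 genes and 0 members.

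MT-CYB, given per library above, had a fitted log2 change of -1.22 (SE 0.24, adjusted p = 0.268 by limma), with -1.16 in KYSE70 and -1.28 in KYSE450. It rested on 1756 and 1846 reads with knockdown in KYSE70 and KYSE450, against 3961 and 5888 reads in the controls. MT-ND6 had -0.98 (SE 0.21, adjusted p = 0.274), with -1.15 in KYSE70 and -0.81 in KYSE450, and MT-ND5 had -0.90 (SE 0.22, adjusted p = 0.295), with -1.02 and -0.77. As ratios of FPKM, MT-CYB stood at 0.444 of its control in KYSE70 and 0.407 in KYSE450, MT-ND6 at 0.448 and 0.571, and MT-ND5 at 0.487 and 0.583. These 3 neighbouring genes were the only mitochondrially encoded members below their control in both lines, 3 of 13 against 25.9% of all genes tested. The call on MT-CYB changed with the libraries fitted: its adjusted p was 0.0188 with the 4 libraries of the lentiviral arm alone, and between 0.00172 and 0.0183 when any single one of the 8 libraries was left out, whichever it was. Those fits have 1 residual degree of freedom in place of 2, limma's prior degrees of freedom were estimated at 13.1 to 32.1 in them, against 4.92 with all libraries, and between 36 and 4833 genes of any kind passed. Without the KYSE70 knockdown library, 2 members, MT-CYB (adjusted p = 0.00565) and MT-ND6 (adjusted p = 0.0314), were called, beside 336 genes higher and 244 lower over all genes. That fit takes the change from the KYSE450 pair alone and the spread from the plasmid libraries.

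The other 10 mitochondrially encoded genes had a median log2 change of 0.58 in KYSE70 and -0.16 in KYSE450. MT-ND4L stood at 3.001 times its control in KYSE70 and 1.01 times in KYSE450, MT-ND4 at 2.19 and 0.780 times, and MT-ATP8 at 2.18 and 0.878 times. MT-ND3, which lies just before MT-ND4L on the chromosome, stood at 0.512 times its control in KYSE70 and 1.03 times in KYSE450. Over all 13 genes the medians were 0.33 in KYSE70, with 9 higher, and -0.25 in KYSE450, with 11 lower. Of all 14311 genes tested, 7048 were higher in KYSE70 and 6882 lower in KYSE450. In both lines 1 of 13 was higher, against 27.1% of all genes. The difference between the lines was not tested.

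Nuclear-encoded subunits had a median log2 change of -0.30, with -0.58 in KYSE70 and -0.003 in KYSE450, against -0.002 for all genes. By complex, the KYSE70 and KYSE450 medians were -0.65 and -0.07 for complex I, -0.09 and -0.11 for complex II, -0.32 and -0.02 for complex III, -0.98 and 0.06 for complex IV, and -0.53 and 0.04 for complex V. Complex II, which has no mitochondrially encoded partner, and complex III had the KYSE70 medians nearest to 0, and with the trends on GC content and length removed these were 0.05 and 0.007. In all, 32 of 76 nuclear members were lower in both lines, against 25.9% of all genes, and 23 of the 32 were in complex I. Named by size of the smaller change, NDUFA12, an accessory subunit of complex I, had, in KYSE70 and KYSE450, 60.4 and 142 FPKM with knockdown, against 113 and 176 FPKM in the knockdown controls, a log2 change of -0.60 (SE 0.18, adjusted p = 0.332). NDUFS7, which carries an iron-sulfur cluster next to the quinone site, had 14.3 and 24.35 FPKM with knockdown, against 32.05 and 29.04 FPKM in the knockdown controls in these lines, a log2 change of -0.68 (SE 0.21, adjusted p = 0.341). NDUFS8, another iron-sulfur subunit, had 108 and 127 FPKM with knockdown, against 153.5 and 147 FPKM in the knockdown controls, a log2 change of -0.35 (SE 0.15, adjusted p = 0.399). In each of these the knockdown library was below its control in both lines, by more in KYSE70. Without the KYSE70 knockdown library, which leaves the KYSE450 pair, the changes were -0.31 for NDUFA12, -0.245 for NDUFS7 and -0.21 for NDUFS8 (adjusted p = 0.201, 0.373 and 0.419). Higher in both lines were NDUFA7, a complex I accessory subunit, at a log2 change of 0.21, and UQCRFS1, the Rieske iron-sulfur protein of complex III, at 0.18. These were 0.08 and 0.03 without the KYSE70 knockdown library (adjusted p = 0.914 and 0.946), so KYSE450 hardly differed from its control.

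The 4 lowest KYSE70 ratios, picked after their values were seen, belonged to small subunits. ATP5I, subunit e of ATP synthase, had, in KYSE70 and KYSE450, 0.735 and 13.2 FPKM with knockdown, against 8.29 and 10.2 FPKM in the knockdown controls, and its KYSE70 knockdown value rests on 7 reads; 61.6% of its exon bases overlap another gene in GENCODE 29. NDUFA1, a single-span complex I subunit, had 20.8 and 111 FPKM with knockdown, against 121 and 100.4 FPKM in the knockdown controls in these lines. NDUFS6 had 79.3 and 498 FPKM with knockdown, against 330.2 and 443.5 FPKM in the knockdown controls, and COX8A, the smallest subunit of cytochrome c oxidase, had 21.6 and 117.5 FPKM with knockdown, against 86.6 and 116 FPKM in the knockdown controls. The KYSE70 knockdown library was lower than its control by a factor of 4.005 to 11.3 for these 4 genes, and the KYSE450 knockdown library was above its control for all 4.

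In KYSE70 the change under knockdown went with gene length and GC content, among nuclear members and among the protein-coding genes tested. Across the 76 nuclear members Spearman's rho was 0.42 with length and -0.26 with GC content; across 12002 protein-coding genes it was 0.30 and -0.51. In KYSE450 the values were -0.25 and -0.08 across members and 0.07 and 0.03 across protein-coding genes. All points of a line share the same pair of libraries, and genes are not independent replicates. Members under 1000 bases had a KYSE70 median of -0.75 (48 of 55 lower), against -0.31 for protein-coding genes of that length (72.3% lower). Members of 1000 to 2000 bases had -0.31 (16 of 19 lower), against -0.02 for protein-coding genes of that length (51.7% lower). With the trends on GC content and length taken out of each library, the nuclear median was -0.47 in KYSE70, with 60 of 76 lower, and -0.05 in KYSE450. The mitochondrial median was then 0.43 in KYSE70 and -0.34 in KYSE450, where 13 of 13 were lower. Of all 13914 genes with known GC content and length, 6872 were then lower in KYSE70 and 7247 in KYSE450. Fitted on the KYSE70 pair without the KYSE450 knockdown library, with the lone pair assumed to vary like the others, 54 members were called, 5 higher and 49 lower, beside 2108 genes higher and 2725 lower over all genes.

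**Figure D3:**
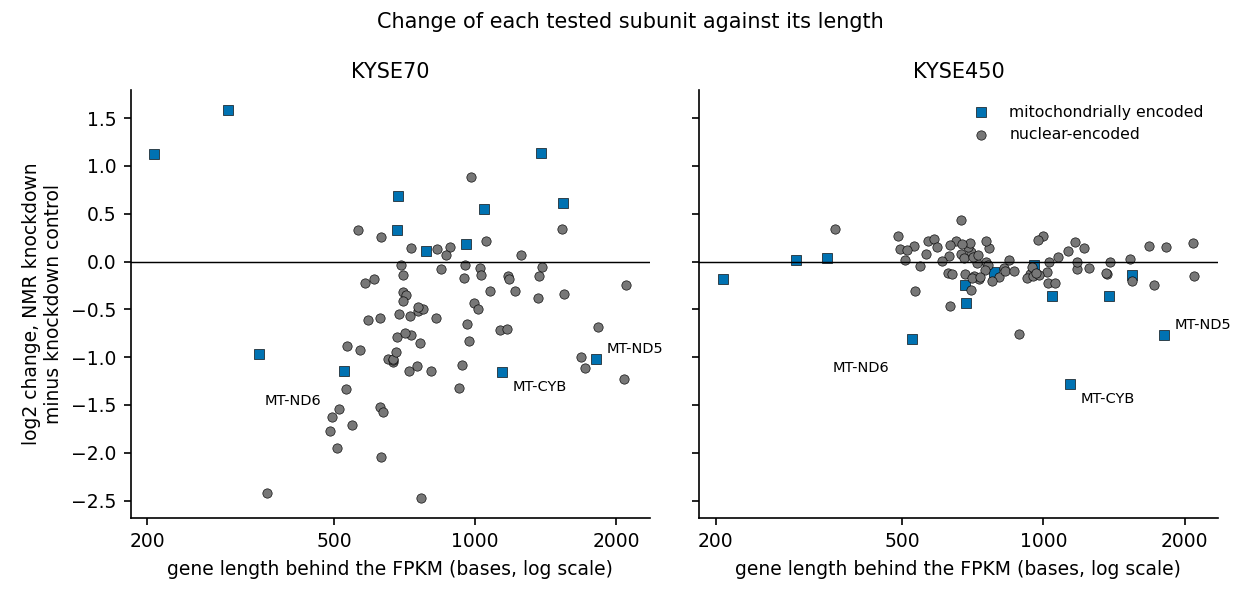
Log2 change under NMR knockdown of each tested subunit (knockdown minus its control, log2(FPKM + 1)) against the gene length behind the FPKM (bases, log scale), KYSE70 left and KYSE450 right. In KYSE70 nuclear members under 1000 bases have a median of -0.75, and in KYSE450 the points lie near 0 except MT-CYB, MT-ND5, MT-ND6 and a few others.

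NMR overexpression was compared with its control in the same way, and the differences were small. Nuclear-encoded subunits were mostly a little lower in both lines, 53 of 76 against 27.6% of all genes, and 5 of 76 were higher in both, against 23% of all genes. By complex, lower in both lines were 26 of 38 in complex I, 4 of 4 in complex II, 5 of 8 in complex III, 5 of 10 in complex IV and 13 of 16 in complex V. The nuclear median log2 change was -0.09, made up of -0.11 in KYSE70 and -0.07 in KYSE450. By limma, 0 of 89 members and 0% of all genes had an adjusted p under 0.05, and voom called 0 genes; at an unadjusted p under 0.05 there were 148 genes and 0 members.

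The mitochondrially encoded genes had a median log2 change of 0.10, and 2 of 13 were higher and 2 lower in both lines. MT-CYB had, in KYSE70 and KYSE450, 197 and 107 FPKM with overexpression, against 98.1 and 110 FPKM in the overexpression controls, log2 changes of 1.001 and -0.04. MT-ND5 had log2 changes of 0.74 in KYSE70 and -0.17 in KYSE450, and MT-ND6 had 0.72 and -0.07. The 3 genes that were lowest with knockdown thus stood highest of the KYSE70 libraries with overexpression, and differed little from the control in KYSE450. The fitted change of MT-CYB was 0.48 (SE 0.24, adjusted p = 1 by limma), and without the KYSE70 overexpression library or its control it was -0.04, the change of the KYSE450 pair.

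Of the nuclear members named by the smaller change, NDUFA13, an accessory complex I subunit, had, in KYSE70 and KYSE450, a log2 change of 0.17 and 0.34. Its level was low, at 1.36 to 4.23 FPKM over the libraries. COX6B2 was at 0.38 and 0.10 and UQCR11 at 0.11 and 0.09 on low levels. On the lower side were UQCRQ, a small complex III subunit (-0.26 and -0.23), COX6A1 (-0.25 and -0.23) and ATP5J2, subunit f of ATP synthase (-0.20 and -0.27). The adjusted p was 1 for all 6.

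KYSE70 differed from KYSE450 in many subunits, across the 4 libraries of each line. KYSE70 was higher for the complex I subunit NDUFB5, for ATP5A1 and for MT-ATP6, MT-ND2 and MT-CO1. KYSE70 was called lower for 29 nuclear-encoded subunits, of complex IV and V above all by size, and for MT-ND6. Of 89 members 35 were called, against 50.3% of all genes: 5 rose in KYSE70 relative to KYSE450, against 24.7% of all genes, and 30 fell, against 25.6% of all genes. Nuclear members were called 2 higher and 29 lower of 76, and mitochondrially encoded ones 3 higher and 1 lower of 13. The median log2 difference was 0.47 for mitochondrially encoded and -0.38 for nuclear-encoded genes, against -0.02 for all genes.

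The direction held in each group. The mitochondrial median was 0.21 with overexpression, 0.36 in its control, 1.07 with knockdown and 0.17 in its control, and for nuclear members the same groups gave -0.27, -0.14, -0.85 and -0.30. By complex the nuclear medians were -0.89 for complex IV, -0.59 for complex V, -0.51 for complex II, -0.22 for complex I and -0.15 for complex III. Called lower in KYSE70 were 5 of 10 members in complex IV, 9 of 16 in complex V and 2 of 4 in complex II. In complex I 10 of 38 were called lower and in complex III 3 of 8, against 25.6% of all genes. By sign alone, the fitted difference was below 0 for 8, 13, 3, 26 and 6 members of these complexes in that order, and for 7288 of 14311 genes. Without the KYSE70 knockdown library 47 members were called, 16 higher and 31 lower, of which 33 were among the 35, against 26.3% of all genes higher and 27.6% lower. With the GC and length trends removed 34 were called, 12 higher and 22 lower, against 28% and 24.6%, so the split of directions depends on that step.

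NDUFB5, an accessory subunit of the complex I membrane arm, had, in the order overexpression, its control, knockdown and its control, 674, 712, 699.5 and 718 FPKM in the KYSE70 libraries, against 184, 188, 175 and 194 FPKM in the KYSE450 libraries. The groups were far apart, with a log2 difference of 1.91 (SE 0.11, adjusted p = 5.0e-07 by limma). NDUFV2, the iron-sulfur subunit beside the flavin site, had in that order 1.58, 0.705, 2.34 and 1.80 FPKM in the KYSE70 libraries, against 4.12, 6.61, 6.39 and 9.22 FPKM in the KYSE450 libraries, a log2 difference of -1.54 (SE 0.26, adjusted p = 0.000914). Its lowest library rests on 14 reads. NDUFB10, a membrane-arm subunit, had 104, 114, 45.7 and 102 FPKM in the KYSE70 libraries, against 229, 237.5, 193 and 196 FPKM in the KYSE450 libraries, a log2 difference of -1.29 (SE 0.27, adjusted p = 0.00282). Without the KYSE70 knockdown library NDUFB10 was at -0.99 (adjusted p = 0.000134). For NDUFV2 and NDUFB10 the highest KYSE70 library was below the lowest KYSE450 library.

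In complex II, the flavoprotein subunit SDHA had, in the same order, 133, 139, 120.3 and 157.5 FPKM in the KYSE70 libraries, against 272, 302, 254 and 276.5 FPKM in the KYSE450 libraries, a log2 difference of -1.004 (SE 0.12, adjusted p = 0.000115). The membrane anchor SDHC had 112, 115, 90.5 and 92.7 FPKM in the KYSE70 libraries, against 253, 265, 215 and 188 FPKM in the KYSE450 libraries, a log2 difference of -1.15 (SE 0.15, adjusted p = 0.000168). The line ranges of both did not overlap. The iron-sulfur subunit SDHB had 172, 187, 147 and 162 FPKM in the KYSE70 libraries, against 143, 147, 173 and 213 FPKM in the KYSE450 libraries, and the second anchor SDHD had 88.96, 96.5, 84.1 and 76.95 FPKM in the KYSE70 libraries, against 78.5, 85.1, 72.8 and 78.1 FPKM in the KYSE450 libraries; their line ranges overlapped, with log2 differences of -0.01 and 0.14 and adjusted p of 0.981 and 0.357. SDHA and SDHC were thus called lower and SDHB and SDHD were not called, and differences among the 4 subunits were not tested.

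In complex IV, COX5B, a peripheral subunit, had in that order 175, 208, 84.6 and 172.5 FPKM in the KYSE70 libraries, against 428, 418, 413 and 363 FPKM in the KYSE450 libraries, a log2 difference of -1.41 (SE 0.25, adjusted p = 0.00123). COX6A1 had 20.2, 24.2, 6.23 and 20.5 FPKM in the KYSE70 libraries, against 37.5, 44.1, 34.1 and 37.4 FPKM in the KYSE450 libraries, a log2 difference of -1.20 (SE 0.35, adjusted p = 0.0167). COX6B1 had 279, 300.1, 72.7 and 213 FPKM in the KYSE70 libraries, against 459.7, 476, 353 and 324 FPKM in the KYSE450 libraries, a log2 difference of -1.06 (SE 0.40, adjusted p = 0.0491). Both lines' ranges were separate for the 3 genes, with the KYSE70 knockdown library lowest. Without that library the difference of COX5B was -1.13 (adjusted p = 5.77e-05), that of COX6A1 was -0.79 (adjusted p = 0.000977) and that of COX6B1 -0.61 (adjusted p = 0.0199). COX6B1 missed the threshold without other single libraries: without the KYSE450 knockdown library (adjusted p = 0.077), the KYSE70 or KYSE450 knockdown control (0.0786 and 0.0616), or the KYSE450 overexpression library or its control (0.104 and 0.108).

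The alpha subunit of ATP synthase, ATP5A1, which alternates with the catalytic beta subunit in the F1 head, had in that order 442, 458, 431 and 409.6 FPKM in the KYSE70 libraries, against 342, 375, 339.5 and 355 FPKM in the KYSE450 libraries, a log2 difference of 0.30 (SE 0.11, adjusted p = 0.0429). The catalytic beta subunit ATP5B, the nuclear member with the highest mean level, had 1505, 1599, 1401 and 1335 FPKM in the KYSE70 libraries, against 1971, 2101, 1942 and 2081.5 FPKM in the KYSE450 libraries and was called lower, at -0.47 (SE 0.13, adjusted p = 0.0149). The ATP5B call was lost without the KYSE450 overexpression control (adjusted p = 0.0511), with quantile normalization, where the difference was -0.11 (adjusted p = 0.447), and with the GC and length trends removed, where it was -0.30 (adjusted p = 0.104). The ATP5A1 difference lay between 0.28 and 0.33 when single libraries were left out, with adjusted p between 0.0671 and 0.108 for the 6 libraries whose removal ended the call: the KYSE450 knockdown library and its control, and both overexpression libraries and both their controls. The call on ATP5A1 was also lost with group as a block (adjusted p = 0.0713), with median-ratio scaling (0.0737) and with no filter on level (0.0686). Of the 3 genes that encode the same mature subunit c of the membrane rotor, ATP5G3 fell in KYSE70, at -0.84 (SE 0.25, adjusted p = 0.0177), and ATP5G1 and ATP5G2 were at 0.07 and -0.36 (adjusted p = 0.858 and 0.0785). ATP5G2 passed with group as a block (adjusted p = 0.046), with quantile normalization (0.0404) or without the KYSE70 overexpression control (0.0442), ATP5G3 missed with the GC and length trends removed (0.0528), and ATP5G1 lay between -0.10 and 0.36 without single libraries. ATP5G1 had 282, 275.5, 108 and 183 FPKM in the KYSE70 libraries, against 193, 218, 177 and 171.5 FPKM in the KYSE450 libraries. ATP5G2 had 110.1, 120.1, 75.9 and 94.4 FPKM in the KYSE70 libraries, against 137.5, 134, 121 and 117 FPKM in the KYSE450 libraries, and ATP5G3 had 135, 145, 62.9 and 102 FPKM in the KYSE70 libraries, against 204, 221, 181 and 162 FPKM in the KYSE450 libraries.

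MT-ATP6 had a log2 difference of 0.89 (SE 0.19, adjusted p = 0.00356), MT-ND2 of 0.61 (SE 0.20, adjusted p = 0.0258) and MT-CO1 of 0.59 (SE 0.22, adjusted p = 0.0484), and MT-ND6 of -1.11 (SE 0.31, adjusted p = 0.0145). Without the KYSE450 knockdown, overexpression or overexpression control library, the adjusted p of MT-ND2 was 0.066, 0.0667 and 0.082. MT-CO1 was past the threshold without the KYSE70 knockdown library or the KYSE70 overexpression control; without any other single library its adjusted p lay between 0.0529 and 0.125, and it was 0.105 with group as a block and between 0.0541 and 0.149 with median-ratio scaling, a pseudocount of 0.1, quantile normalization or no filter. MT-ND2 was at 0.0702 with no filter. MT-ATP6 and MT-ND2 have near-identical nuclear copies on chromosome 1, MTATP6P1 (671 of 681 bases the same, 98.5%) and MTND2P28 (1025 of 1042 bases, 98.4%), which were also called higher in KYSE70, at 1.48 and 0.78. The sources used here do not say how reads were divided between gene and copy. The windows printed here, of GENCODE 29 transcripts on GRCh38 (chrM:8642-8701 and chr1:633811-633870, plus strand), show how few bases tell MT-ATP6 from its copy; the capitals mark the 3 bases of 60 that differ.
MT-ATP6: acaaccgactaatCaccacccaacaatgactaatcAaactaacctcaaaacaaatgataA
MTATP6P1: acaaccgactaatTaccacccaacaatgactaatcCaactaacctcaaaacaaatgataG

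**Figure D4:**
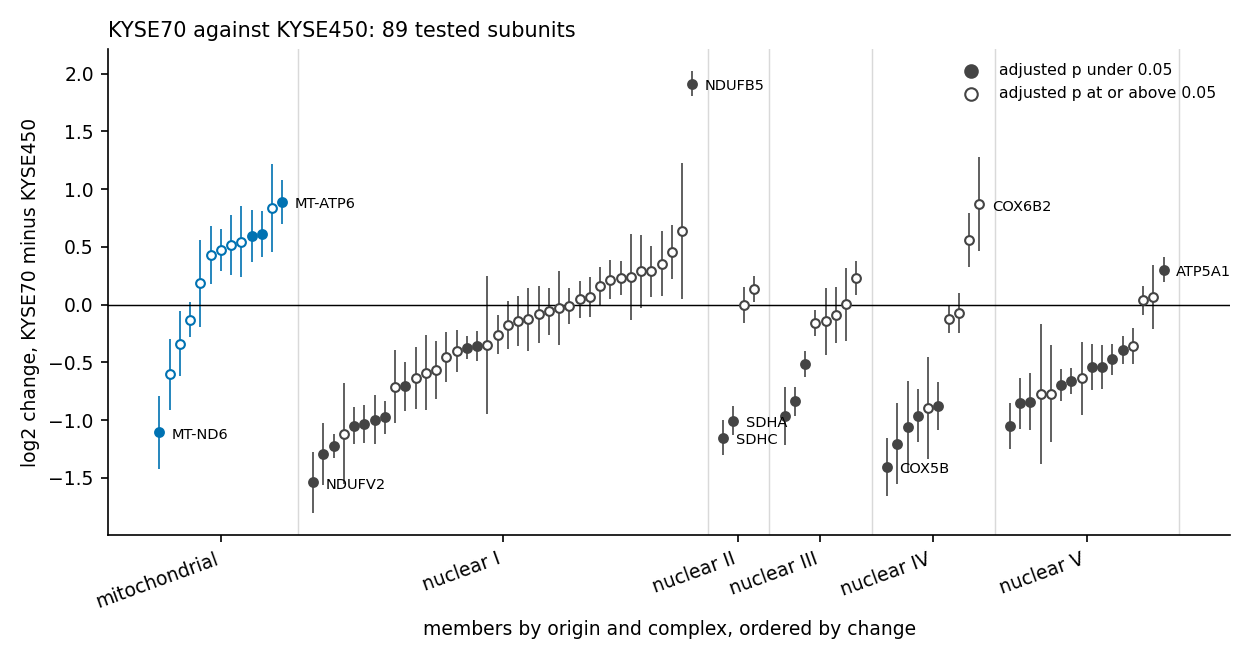
Log2 difference between KYSE70 and KYSE450 (log2(FPKM + 1), 4 libraries per line) for the 89 tested subunits, grouped by origin and complex; points are limma estimates, bars are standard errors, and filled points had an adjusted p under 0.05. Of the mitochondrially encoded genes 3 are called higher and 1 lower, and of the nuclear-encoded genes 2 higher and 29 lower.

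The tissue-specific partners of complex IV subunits were low or absent. COX6A2, the heart and muscle partner of COX6A1, was above 0 only at 0.0592 FPKM with overexpression in KYSE450 and at 0.197 FPKM with knockdown in KYSE70. COX7A1, the heart and muscle partner of COX7A2, averaged 0.7095 FPKM, and COX7A2 had in the same order 233, 259, 126 and 193.5 FPKM in the KYSE70 libraries, against 363, 345, 389 and 351 FPKM in the KYSE450 libraries, a log2 difference between the lines of -0.88 (SE 0.21, adjusted p = 0.00597). COX8C and COX7B2, forms known from testis, were listed at or near 0, against 21.6 to 146 FPKM for COX8A and 77.8 to 135 FPKM for COX7B. COX6B2, the testis form of COX6B1, was the exception, with 1.70, 1.07, 7.81 and 3.79 FPKM in the KYSE70 libraries, against 0.839, 0.717, 1.47 and 1.72 FPKM in the KYSE450 libraries in that order. It was higher in KYSE70 in each of the 4 groups, with a log2 difference of 0.87 (SE 0.41, adjusted p = 0.102). Without the KYSE70 knockdown library it was 0.48 (adjusted p = 0.21), without the KYSE70 overexpression control 1.18 (adjusted p = 0.0292), and with group as a block or quantile normalization its adjusted p was 0.0282 and 0.0189.

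Differences between the lines ran with those of genes nearby on the chromosome. For 74 nuclear members with at least 3 tested genes within 1000000 bases (positions of GENCODE 29), the difference had a Spearman rho of 0.69 with the median difference of those neighbours. For 13413 genes of any kind rho was 0.49. Neighbours share chromosomes and libraries and can include other members, so these are descriptions. NDUFB5, on chromosome 3, had 13 such neighbours, of which 9 were called higher and 0 lower, with a median of 1.57. NDUFV2, on chromosome 18, had 11, with 10 called lower and 0 higher and a median of -1.09. SDHC lies on chromosome 1, where 18 of its 21 neighbours were called lower. COX6A1, on chromosome 12, was an exception: 8 of its 31 neighbours were called higher and 3 lower. Of 30 called members, 23 had the sign of their neighbours' median, against 76.9% of 6698 called genes.

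**Figure D5:**
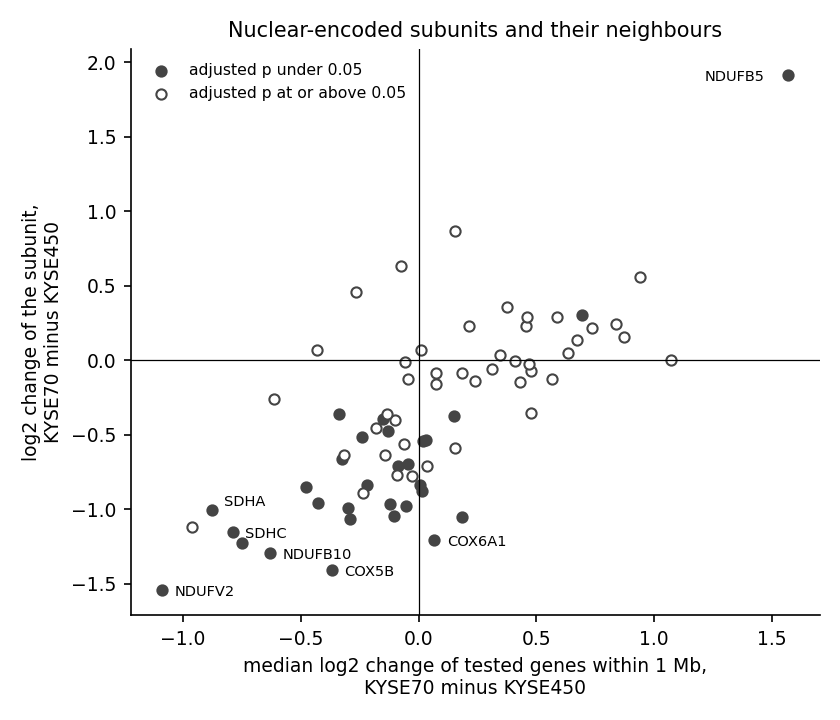
Log2 difference between KYSE70 and KYSE450 of each nuclear-encoded subunit (vertical) against the median difference of the tested genes within 1 Mb (horizontal), for the 74 members with at least 3 such genes; filled points had an adjusted p under 0.05. NDUFB5 lies at the upper right with neighbours at 1.57, and NDUFV2 at the lower left with neighbours at -1.09.

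The lentiviral arm (knockdown and its control) was compared with the plasmid arm (overexpression and its control), with cell line as a covariate. NDUFA4L2, COX6B2 and UQCR11 rose in the lentiviral arm and SDHC fell; these were 4 of 89 members, against 14.4% of all genes, 3 higher against 10% and 1 lower against 4.35%. The nuclear median log2 difference was -0.30, with 41 of 76 lower in all 4 pairs of libraries, against 13% of all genes, and 4 higher in all, against 23.6%, and the mitochondrial median was 0.16, against 0.07 for all genes. Vector, delivery, culture and library preparation cannot be told apart between the arms.

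NDUFA4L2, a paralog of NDUFA4 known as a target of hypoxia-inducible factor, had, in KYSE70 and KYSE450, 15.7 and 3.52 FPKM with knockdown and 14.01 and 6.66 FPKM in the knockdown controls, against 2.60 and 5.33 FPKM with overexpression and 2.405 and 1.42 FPKM in the overexpression controls. The log2 difference was 1.38 (SE 0.39, adjusted p = 0.0478 by limma), but 1 pair went the other way, the KYSE450 treated libraries at -0.49. NDUFA4 itself, a subunit counted here by symbol with complex I and now placed in complex IV, had 201 and 324 FPKM with knockdown and 288 and 324 FPKM in the knockdown controls, against 372 and 361 FPKM with overexpression and 395 and 367 FPKM in the overexpression controls in these lines. COX6B2 had 7.81 and 1.47 FPKM with knockdown and 3.79 and 1.72 FPKM in the knockdown controls, against 1.70 and 0.839 FPKM with overexpression and 1.07 and 0.717 FPKM in the overexpression controls, a log2 difference of 1.0 (SE 0.25, adjusted p = 0.0326). UQCR11, a small complex III subunit, had 1.08 and 1.51 FPKM with knockdown and 1.77 and 1.83 FPKM in the knockdown controls, against 0.711 and 0.729 FPKM with overexpression and 0.5875 and 0.630 FPKM in the overexpression controls, a log2 difference of 0.61 (SE 0.14, adjusted p = 0.0251), on 12 to 49 reads per library. SDHC, whose levels are given above, had a log2 difference of -0.34 (SE 0.10, adjusted p = 0.0484). COX6B2, UQCR11 and SDHC had the same direction in all 4 pairs.

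The calls depended on single libraries. Leaving out a single library moved the count to between 0 and 8, and the genes called overall to between 484 and 2504. The member count was 0 without the KYSE450 knockdown control, the KYSE70 overexpression library or either overexpression control. It was 2 without the KYSE450 knockdown or overexpression library and 6 without the KYSE70 knockdown control. Without the KYSE70 knockdown library it was 8, where 11.5% of all genes were called higher and 6% lower. With median-ratio scaling, which shifts the libraries by between -0.07 and 0.08 on the log2 scale, members were called 2 higher and 4 lower, and all genes 1071 higher and 904 lower in place of 1432 and 623. With the GC and length trends removed, 11 members were called, 2 higher and 9 lower, against 8.45% and 9.31% of all genes. Named by value only, COX6B1 was at -0.84 (adjusted p = 0.0923) and NDUFA1 at -1.14 (adjusted p = 0.137), both lower in all 4 pairs. Without the KYSE70 knockdown library they were at -0.46 (adjusted p = 0.0114) and -0.51 (adjusted p = 0.0127).

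Knockdown controls and overexpression controls, which hold no manipulation of NMR, were compared with each other as well. Nuclear-encoded subunits were mostly lower in the knockdown controls, 49 of 76 in both lines against 24.3% of all genes, with a median log2 difference of -0.19. Mitochondrially encoded ones were mostly higher, 9 of 13 in both lines against 37.1% of all genes, with a median of 0.23. With the GC and length trends removed, the mitochondrial median was 0.025 in KYSE70, with 6 of 13 lower, and 0.27 in KYSE450, with 0 lower. The nuclear medians were then -0.35 and -0.17, and those of all genes -0.05 and -0.01. By limma, 0 mitochondrially encoded members had an unadjusted p under 0.05. With limma 0 of 89 members and 0% of all genes had an adjusted p under 0.05; 4 members and 2078 genes had an unadjusted p under 0.05, and voom called 0 genes. NDUFA4L2 had, in KYSE70 and KYSE450, 14.01 and 6.66 FPKM in the knockdown controls, against 2.405 and 1.42 FPKM in the overexpression controls, a log2 difference of 1.90 (SE 0.56, adjusted p = 0.228). With the 4 control libraries alone it was called (adjusted p = 0.0417). UQCR11 was at 0.80 (SE 0.21, adjusted p = 0.199) and COX6B2 at 0.94 (SE 0.38, adjusted p = 0.326). NDUFA1, NDUFB2 and COX6B1 were lower in both lines, at -0.62, -0.60 and -0.52 (adjusted p = 0.687, 0.426 and 0.585). Single libraries moved them by over 1.5 times: without the KYSE70 or KYSE450 knockdown control NDUFA1 was at -1.03 and -0.21, NDUFB2 at -0.83 and -0.37 and COX6B1 at -0.83 and -0.22, and without the KYSE70 or KYSE450 overexpression control at -0.10 and -1.14, -0.41 and -0.79, and -0.26 and -0.79. COX6B2 was at 0.54 without the KYSE70 overexpression control.

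Whether the arm difference itself differed between the lines was tested with an interaction term, the arm difference in KYSE70 minus that in KYSE450. It had a median of -0.42 for nuclear and 0.04 for mitochondrially encoded members. With limma 0 of 89 members had an adjusted p under 0.05, against 6.88% of all genes, 5.28% higher and 1.6% lower.

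The promoters of nuclear subunits are known to be read by NRF1, a transcription factor for genes of respiration, and YY1. RefSeq promoter windows on GRCh38.p14 (250 bases before to 50 after the start site) matched 61 of the 76 tested nuclear members. The NRF1 motif, GCGCA and GCGC with any base N between them, searched on both strands, was found in 15 of 61 (24.6%), against 11.7% of 9993 other tested genes and 6.28% of all 27305 promoters. The YY1 motif, AAGAT directly followed by GGCGG, was found in 7 of 61 (11.5%), against 2.8% and 1.28%, and either motif in 20 of 61 (32.8%), against 14.2% and 7.41%. Examples are shown with the motif in capitals, because SDHA, NDUFA9 and UQCRC1 were all called lower in KYSE70: SDHA at chr5:218134-218319 (plus strand), where the motif stands 4 times with starts 49 bases apart, NDUFA9 at chr12:4649014-4649063 (plus strand) and UQCRC1 at chr3:48609664-48609713 (minus strand).
SDHA: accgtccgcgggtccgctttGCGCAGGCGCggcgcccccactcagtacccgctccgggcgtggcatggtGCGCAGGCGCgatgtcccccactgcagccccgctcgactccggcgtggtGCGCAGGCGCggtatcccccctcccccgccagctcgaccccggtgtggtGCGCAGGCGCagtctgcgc
NDUFA9: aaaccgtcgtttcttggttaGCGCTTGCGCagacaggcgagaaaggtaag
UQCRC1: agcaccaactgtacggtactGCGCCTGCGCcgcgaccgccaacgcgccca

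Median differences of members with and without the NRF1 motif are given as descriptions, with no test. Between the lines they were -0.57 with the motif (15 genes) and -0.36 without it (46 genes), between the arms -0.22 and -0.33, with knockdown -0.25 and -0.32, and with overexpression -0.11 and -0.08. NRF1 itself had, in KYSE70 and KYSE450, 12.1 and 8.20 FPKM with knockdown and 11.1 and 8.05 FPKM in the knockdown controls, against 15.95 and 11.55 FPKM with overexpression and 15.4 and 13.8 FPKM in the overexpression controls. NRF1 fell in the lentiviral arm, at -0.49 (SE 0.12, adjusted p = 0.0258 by limma), with adjusted p between 0.0569 and 0.0972 without any single library other than the KYSE70 knockdown library and its control.

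Genes that build and supply the complexes were taken as lists: assembly factors, mitochondrial DNA copying and transcription, RNA processing, regulators, the citrate cycle and the mitochondrial ribosome. In both treatments 0 genes of these lists, and 0 of all 14311 genes tested, were called by limma. Between the lines, 2 of 13 complex I assembly factors rose in KYSE70 and 5 fell; of 21 factors for complexes II to V, 6 rose and 4 fell; of 15 for mitochondrial DNA, 5 and 3; of 17 for mitochondrial RNA, 5 and 5; of 14 citrate cycle genes, 4 and 2; and of 9 regulators, 2 and 0. Of 74 mitochondrial ribosomal proteins 6 rose and 28 fell. Over all genes, against which these counts stand, 24.7% were called higher and 25.6% lower. Of 8 subunits and related genes outside the symbol rule, 0 rose and 2 fell: the complex IV subunit COX4I1 at -1.11 (adjusted p = 0.00103) and COX7A2L at -0.99 (adjusted p = 0.00112).

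PPARGC1A, the coactivator that drives mitochondrial biogenesis, showed the widest gap between the lines among the genes of these lists, with, in the order overexpression, its control, knockdown and its control, 14.3, 12.3, 29.55 and 25.1 FPKM in the KYSE70 libraries, against 0.147, 0.106, 0.122 and 0.0565 FPKM in the KYSE450 libraries. The log2 difference was 4.18 (SE 0.26, adjusted p = 1.16e-06 by limma), while most nuclear subunits were lower in KYSE70. LRPPRC, which stabilises mitochondrial messenger RNA together with SLIRP, had in that order 176.5, 177, 281 and 193 FPKM in the KYSE70 libraries, against 258, 299.8, 441 and 450.4 FPKM in the KYSE450 libraries; it fell in KYSE70, at -0.79 (SE 0.23, adjusted p = 0.0153), and rose in the lentiviral arm, at 0.54 (SE 0.14, adjusted p = 0.0379). SLIRP had 198, 244, 83.7 and 179 FPKM in the KYSE70 libraries, against 107, 139.8, 172 and 162 FPKM in the KYSE450 libraries, and its line ranges overlapped. Without any single library other than a KYSE70 one of the lentiviral arm, the arm call of LRPPRC was lost, with adjusted p between 0.0891 and 0.0972.

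TFAM, which packages mitochondrial DNA and starts its transcription, had, in KYSE70 and KYSE450, 53.45 and 44.7 FPKM with overexpression against 56.03 and 52.4 in its controls, and 42.2 and 46.1 FPKM with knockdown against 36.3 and 35.4 in its controls. POLRMT, the mitochondrial RNA polymerase, had in these lines 144 and 96.9 FPKM with overexpression against 137 and 109 in its controls, and 118 and 102 FPKM with knockdown against 155 and 134 in its controls. Neither passed the test in any of the 5 comparisons. POLRMT was below its control in both knockdown pairs, at -0.39 in each (adjusted p = 0.367), and TFAM was above it, at 0.21 in KYSE70 and 0.37 in KYSE450 (adjusted p = 0.426).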

How the data were processed

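Each library had 1 deposited value per gene. Per the submitters' processing notes, TopHat2 2.0.9, HTSeq 0.6.1 and hg19 were used, with no roles given; the sources used here do not give annotation, filters or strand setting. From the values, the authors' deposited unit is FPKM: for 30872 of the 30872 genes above 0 in at least 2 libraries, the values of the 8 libraries were multiples of 1 step within 0.02 of a whole number, which gave the recovered reads. A single read in a gene of 1000 bases is worth 0.0264 to 0.0379 FPKM; read numbers cover counting error only.

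Groups came from the titles. Genes with a mean of at least 1 FPKM (14311) were fitted as log2(FPKM + 1) with limma 3.58.1 (trend) in R 4.3.3 and adjusted by Benjamini and Hochberg over all of them, threshold 0.05; changes of low genes are understated on this scale. Knockdown and overexpression used a term per line and arm plus both treatment terms (2 residual degrees of freedom); the lines were fitted without a block, the arms with line as covariate, and the controls with line and group. Replicate 1 is KYSE70 and replicate 2 is KYSE450 in every group, which pairs treated and control libraries by number. The knockdown fit and the cell line fit were checked on simulated data with a common spread for all genes. The other fits were not checked in that way.

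Gene types, positions and transcripts came from GENCODE 29, promoters from RefSeq; GC content and length were known for 97.23% of genes tested, and their trends were removed by loess (span 0.3) as an alternative. Other alternatives were a pseudocount of 0.1, no filter or a mean of at least 5 FPKM, median-ratio scaling, scaling to the sum without mitochondrial genes, quantile normalization, voom on recovered reads, other blocks or libraries, and leaving out each library. Named are all mitochondrial members, up to 5 called nuclear members per direction and comparison, filled to 3 with members of 1 sign in all pairs ranked by the smaller change, the isoform sets, and up to 2 genes per list; 1 gene that this rule names is not reported here. The members, lists and tests were chosen with earlier results of these data known.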

Additional observations from a re-analysis of the deposited data

Results flagged for a closer look

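In 78 checks of a subunit or sum within the 4 libraries of a line, 6 values stood apart from the other 3 by Dixon's criterion. It flags about 1 in 20 by chance where items are not chosen by their values. The nuclear subunits checked, NDUFS7 among them, were mostly those named for their changes in these same libraries, so that rate does not hold for them. Of the 6 values, 5 were in the KYSE70 knockdown library. The shift of that library in ribosomal protein genes and MALAT1 is given above, and its part in these values was not tested. There, the ratio of mitochondrial to nuclear subunit FPKM was 7.78, MT-ND4 was at 5681 FPKM, MT-ND4L at 5649 FPKM and MT-ATP8 at 424 FPKM, each above the other KYSE70 libraries. NDUFS7, an iron-sulfur subunit of complex I, was at 14.3 FPKM in the KYSE70 knockdown library and 24.4 FPKM in the KYSE450 knockdown library, below the other 3 libraries of each line. With overexpression, the median log2 change of MT-ND5, MT-ND6 and MT-CYB was 0.74 in KYSE70, with all 3 higher, and -0.065 in KYSE450, with all 3 lower. With knockdown, the median of the 13 mitochondrially encoded genes was 0.33 in KYSE70 and -0.25 in KYSE450. These differences between the lines were not tested.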

How the results depend on the processing

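Directions turned for mitochondrially encoded genes whose lines pointed apart, since leaving out a treated library or its control leaves the other line's pair. Without single libraries the overexpression change ran between -0.201 and 0.421 for MT-ATP8, -0.099 and 0.416 for MT-CO3, -0.035 and 1.001 for MT-CYB, -0.009 and 0.14 for MT-ND1, -0.15 and 0.154 for MT-ND2, -0.152 and 0.232 for MT-ND3, -0.031 and 0.096 for MT-ND4, -0.172 and 0.737 for MT-ND5, and -0.065 and 0.718 for MT-ND6. The knockdown change ran between -0.248 and 0.328 for MT-ATP6, -0.186 and 1.12 for MT-ATP8, -0.136 and 0.616 for MT-CO1, -0.439 and 0.68 for MT-CO2, -0.106 and 0.113 for MT-CO3, -0.034 and 0.187 for MT-ND1, -0.356 and 0.548 for MT-ND2, -0.965 and 0.04 for MT-ND3, and -0.357 and 1.131 for MT-ND4. With quantile normalization MT-CO3 and MT-ND3 under overexpression were at -0.012 and -0.003, and MT-ATP6 and MT-CO2 under knockdown at -0.212 and -0.375. Between the lines, the uncalled differences of ATP5G1 (-0.1 to 0.357) and SDHB (-0.08 to 0.113) turned without single libraries, and SDHB was at 0.187 with GC and length trends removed and 0.076 when scaled to the sum without mitochondrial genes. Under overexpression 0 members were called in every setting; the mitochondrial minus nuclear median was 0.19 (0.10 with quantile normalization; 0.10 to 0.19 without single libraries). Under knockdown 0 members were called, 1 with the 4 libraries of the arm and a replicate block, 0 with a replicate block of line and group, and 1 to 54 without single libraries, where genes called overall ranged from 36 to 4833; the median difference was 0.375 (-0.245 to 0.911). Between the lines 35 members were called (26 to 47, where genes called overall ranged from 6266 to 7722) and the median difference was 0.857 (0.512 to 0.965). Between the arms 4 were called, 11 with GC and length trends removed, 2 at a mean of at least 5 FPKM and 0 with no filter. With no replicate block 0 were called, beside 9 genes higher and 1 lower over all genes. Without single libraries 0 to 8 were called, where genes called overall ranged from 484 to 2504. The median difference between the arms was 0.457 (0.199 to 0.598). Between the controls 0 were called, 1 with only the control libraries and 0 without single libraries; the median difference was 0.421, 0.437 with GC and length trends removed, 0.456 at 5 FPKM, 0.435 with quantile normalization, 0.428 with voom and 0.169 to 0.681 without single libraries. Fewer libraries or genes enter the fits that leave some out; for the other settings the cause was not tested. Of the named genes' values under alternatives other than leaving out a library, 836 kept their direction and side of the threshold, 6 turned, 6 passed it and 39 dropped below it, among them MT-CO1 and NDUFA4L2 in 5 settings each; without single libraries 588 kept both, 42 turned, 37 passed and 61 dropped. The knockdown effect in KYSE70 and the cell line differences rest on 1 library per group and line, and UQCR11 on 12 to 49 reads per library.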

Other observations

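Genes that assemble and serve the complexes differed between the lines in both directions. FOXRED1, an assembly factor of complex I, was higher in KYSE70 by 1.62 on the log2 scale (adjusted p = 8.77e-06 by limma), and ATPAF1, which assembles the F1 part of ATP synthase, by 1.68 (adjusted p = 5.83e-06). TOP1MT, the mitochondrial topoisomerase, was higher by 2.36 (adjusted p = 1.07e-05), and POLG, the polymerase that copies mitochondrial DNA, differed by -1.23 (adjusted p = 0.000274). MTPAP, which adds poly(A) tails to mitochondrial RNA, and REXO2, which clears short RNA fragments, were higher by 1.37 and 1.40 (adjusted p = 2.23e-05 and 0.000117). In the citrate cycle IDH3A was higher by 1.35 (adjusted p = 1.74e-05) and SUCLG1 differed by -1.12 (adjusted p = 2.34e-05).

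Between the arms, POLG2, the accessory subunit of that polymerase, was higher in the lentiviral arm by 0.68 (adjusted p = 0.0075), TFB1M, which methylates mitochondrial ribosomal RNA, by 0.76 (adjusted p = 0.00916), and COX15, which makes heme A for complex IV, by 0.42 (adjusted p = 0.023). COX15 missed the threshold without the KYSE450 knockdown library, either overexpression library or either overexpression control, with adjusted p between 0.0595 and 0.0892. Of 74 mitochondrial ribosomal protein genes, 58 were lower in both lines with overexpression, against 27.6% of all genes, and 36 with knockdown, against 25.9%. By limma, 0 of the 74 and 0 of all 14311 genes tested were called in either treatment. An unadjusted p under 0.05 was found for 1 of 74 with overexpression, against 148 of 14311 genes. With knockdown it was found for 14 of 74, against 1794 of 14311 genes.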
